A study of Mus musculus with 8 samples.

Results

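The Hox genes are homeobox transcription factors that lie in the mouse genome as the HoxA, HoxB, HoxC and HoxD clusters. All rows named Hox with a cluster letter and a paralog number were taken, which gave 39 genes of 22050 with an exon model: 11 in HoxA, 10 in HoxB, 9 in HoxC and 9 in HoxD. Their RNA was measured in haematopoietic stem cells (HSCs) sorted from the bone marrow of C57BL/6 mice as CD150+ CD48- EPCR+ Lineage- cells, with 100 cells named in the protocol for each library. One group of 4 libraries came from mice at postnatal day 5, called P5 below, and the other group of 4 from mice aged 4 weeks. Both groups were of the same strain, tissue and gate, and the labels name no treatment or allele for either. Nothing in the labels says which libraries came from separate animals, so p-values measure the spread between these samples only, and part of it may be technical.

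Along each cluster the genes lie in the order of their paralog numbers, and genes with the same number in different clusters are the closest relatives. The proteins bind DNA through the homeodomain, together with cofactors of the TALE class such as Meis1 and the Pbx proteins. In blood, HoxA and HoxB genes are best known from immature cells: Hoxa9 acts in the renewal of HSCs and in leukaemia with rearranged MLL, and Hoxb4 is known for expanding HSCs when overexpressed.

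The results turn mostly on members of paralog group 9 and on Hoxa10. The homeoboxes of Hoxb9, Hoxc9 and Hoxa10, the part of the gene that encodes the homeodomain, are shown to let their likeness be seen. The capitals mark the 18 bases that encode the residues WFQNR and the one after them in the recognition helix, found in all 39 genes. Sequences run 5′ to 3′ on the coding strand and were read from GENCODE transcripts of GRCm38, with positions on that build. The Hoxb9 homeobox lies at chr11:96274659-96274838 (plus strand), that of Hoxc9 at chr15:102983930-102984109 (plus strand) and that of Hoxa10 at chr6:52232554-52232733 (minus strand). Each lies within 1 exon.
Hoxb9: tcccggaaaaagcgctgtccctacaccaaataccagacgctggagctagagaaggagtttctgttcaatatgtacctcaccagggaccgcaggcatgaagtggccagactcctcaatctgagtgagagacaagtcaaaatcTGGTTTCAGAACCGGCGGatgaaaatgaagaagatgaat
Hoxc9: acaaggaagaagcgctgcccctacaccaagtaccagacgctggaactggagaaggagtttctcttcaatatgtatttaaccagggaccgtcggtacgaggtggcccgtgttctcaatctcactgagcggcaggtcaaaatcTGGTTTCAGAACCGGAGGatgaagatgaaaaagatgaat
Hoxa10: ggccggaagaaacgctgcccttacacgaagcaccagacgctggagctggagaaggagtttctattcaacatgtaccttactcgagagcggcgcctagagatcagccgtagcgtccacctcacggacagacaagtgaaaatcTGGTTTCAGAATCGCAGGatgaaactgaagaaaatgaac
Over the 180 bases, Hoxb9 was identical to Hoxc9 at 83.9% of positions and to Hoxa10 at 135 of them, and Hoxc9 to Hoxa10 at 134. The longest run of identical bases was 24 between Hoxb9 and Hoxc9 and 17 between either of them and Hoxa10. All 5071 exon reads of Hoxa9 and all 21 of Hoxc9 were listed as uniquely mapped, as were 83.3% of those of Hoxb9 and 42.1% of those of Hoxa10. The Hoxa10 model shares 1115 bases with the row LOC105242659, described below, and the Hoxb9 model encloses Gm53. Why the other reads were not unique was not tested.

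Libraries held 5775130 to 7470777 exon reads. Y-linked genes had 2293 and 2062 reads in P5 replicates 2 and 4 and 1532 to 2214 in the 4-week libraries, against 2 and 0 in P5 replicates 1 and 3, so sex and age were not balanced. P5 replicate 1 had the smallest share of intron reads over genes with an exon model, at 60.1%, with the other libraries between 66.8% and 68.7%. CPM here and below are reads of one class scaled to 1000000 such reads after normalisation. For rows without an exon model the class was gene reads over such rows only. Their CPM therefore do not compare with the CPM of genes. Genes of the HSC gate were present in every library, with Slamf1 (which encodes CD150) at 26.9 to 42.9 CPM and Procr (EPCR) at means of 55.0 CPM (P5) and 57.1 CPM (4 weeks), while Cd48 averaged 4.98 CPM at P5 and 5.10 CPM at 4 weeks. In the list of 10 HSC gate and defining genes, 3 were higher and 1 lower at P5. Among all genes tested, 7.99% were higher and 8.55% lower. The 4 were Mecom, Fgd5 and Ctnnal1 (1.28-fold, 1.52-fold and 2.18-fold higher) and Ly6a (2.9-fold lower), with edgeR adjusted p at most 0.0106. Summed markers of lymphoid cells reached at most 3.57 CPM, with Ms4a1 and Cd3e at 0 in every library. Summed mesenchymal markers were at 12.8 to 32.5 CPM at P5 and 12.4 to 88.1 CPM at 4 weeks, where replicate 4 was highest, with 50.4 CPM of Cxcl12. Granulocyte and monocyte markers summed to 183.6 to 391.7 CPM at P5, the highest in replicate 2 with 158 CPM of Csf1r, and to 178 to 203 CPM at 4 weeks. Erythroid markers summed to 14.1 to 20.9 CPM at P5 and to 14.8 to 90.0 CPM at 4 weeks, the highest in replicate 3. Single members of both lists differed without overlap, in both directions. Mpo was 3.76-fold higher at P5 and Gata1 6.05-fold lower (edgeR adjusted p = 0.011 and 0.00303). Epor had 9.64 to 14.9 CPM at P5 and 6.48 to 9.31 at 4 weeks. S100a8 and S100a9 had 0 CPM at P5 and 2.05 to 3.32 and 1.01 to 3.74 CPM at 4 weeks. Sums over endothelial, multipotent progenitor and megakaryocyte markers overlapped between the ages (984 to 1113, 358 to 468 and 293 to 404 CPM at P5, and 939 to 1089, 323 to 437 and 319 to 419 CPM at 4 weeks), but some single members did not: Cdh5 had 5.73 to 19.4 CPM at P5, highest in replicate 2, and at most 0.168 at 4 weeks, and Flt1 0.705 to 1.94 against at most 0.316 CPM. By edgeR, Tek and Gp9 were also higher at P5, 1.57-fold and 2.50-fold (adjusted p = 0.000474 and 0.00153), and Itga2b 1.89-fold lower (adjusted p = 0.00204). The endothelial marker Eng went the other way without overlap, at 347 to 380 CPM (P5) and 386 to 427 CPM (4 weeks). It was not called (edgeR adjusted p = 0.140). The part of such cells in the Hox values was not tested.

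Most Hox reads in these HSCs were HoxA reads at both ages. HoxA genes took 80.3% of all 16336 Hox exon reads, HoxB genes 17.7%, HoxC genes 1.91% and HoxD genes 0.0735%. Of 37163 Hox intron reads, HoxA genes took 65.0% and HoxB genes 34.5%. Overlapping gene models, described below, bear on both sets of shares. The HoxA cluster summed to 249 ± 31.6 CPM at P5 and 251 ± 26.0 CPM at 4 weeks, and the HoxB cluster to 51.8 ± 7.70 and 59.1 ± 9.03 CPM (SD, n = 4 per age). The HoxC cluster summed to 8.38 ± 5.53 CPM at P5, where single libraries lay at 2.32, 11.5, 5.33 and 14.4, and to 3.41 ± 1.07 CPM at 4 weeks, where they lay between 2.24 and 4.71. All 12 exon reads of HoxD genes were from P5 libraries. Together Hox genes held 0.0307% (P5) and 0.0316% (4 weeks) of all exon reads. By paralog number, genes 1 to 4 took 38.0% of Hox exon reads, genes 5 to 8 took 22.7% and genes 9 to 13 took 39.3%, nearly all of the last from Hoxa9 and Hoxa10.

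**Figure D1:**
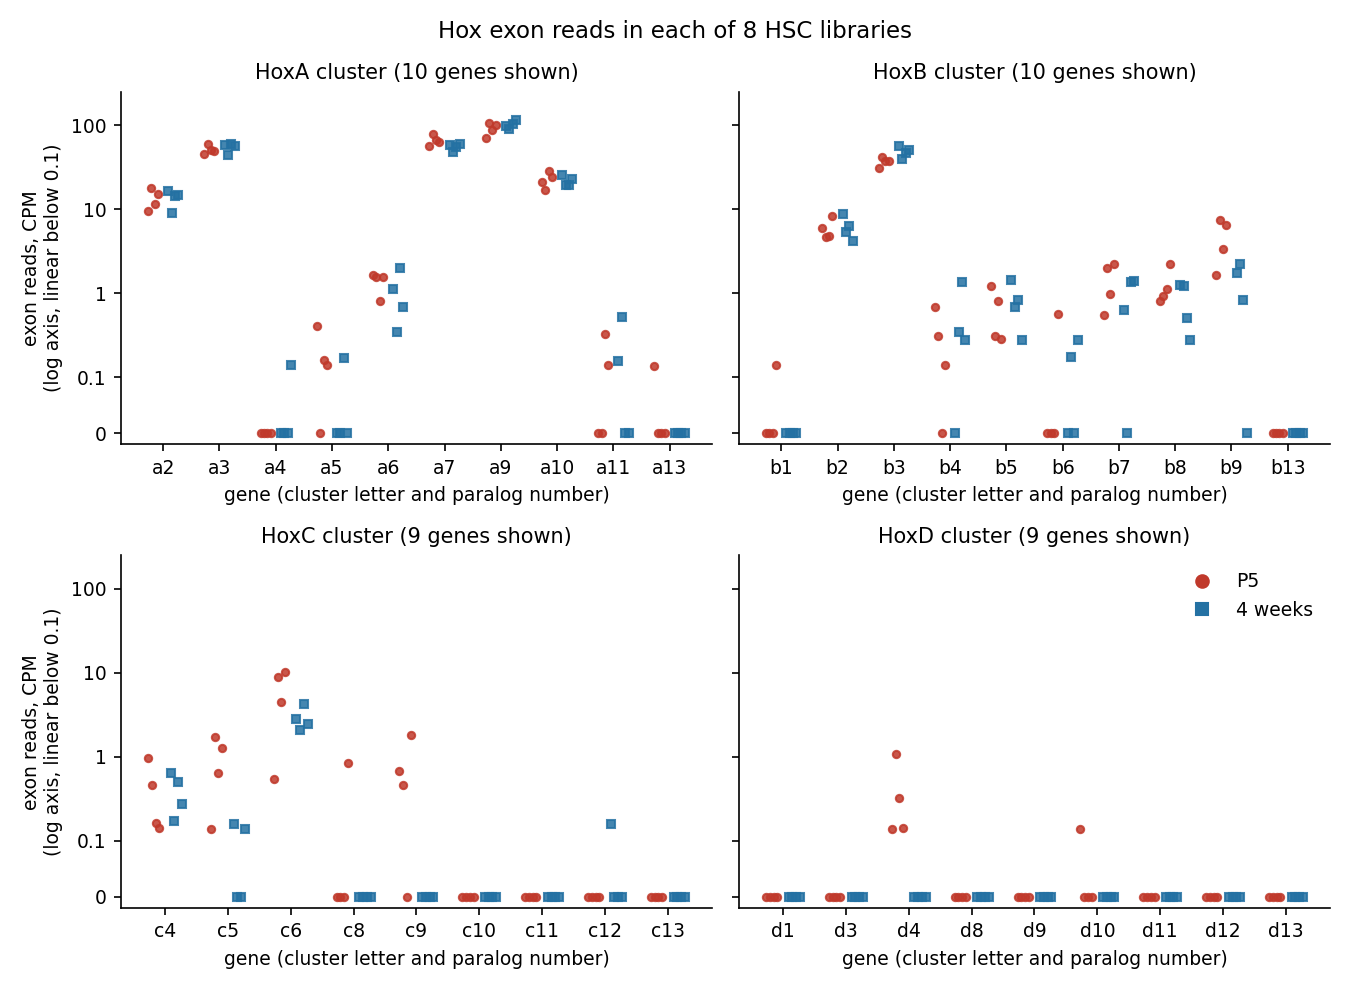
Exon reads of 38 Hox genes in CPM (vertical axis, logarithmic above 0.1 and linear below), ordered by paralog number within each cluster, with 1 point for each P5 (circles) and 4-week (squares) library. Hoxa9, Hoxa7, Hoxa3, Hoxb3, Hoxa10, Hoxa2 and Hoxb2 stand high at both ages, and most of HoxC and HoxD lies at 0.

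Of the 39 genes, 13 had an exon read in every library, 11 had none in any, 5 had a single read, and 10 had enough reads to be tested. Those reported in detail are Hoxa2, Hoxa3, Hoxa7, Hoxa9, Hoxa10, Hoxb2, Hoxb3, Hoxb9 and Hoxc6. The other 13, with 6 to 64 reads each, were Hoxa5, Hoxa6, Hoxa11, Hoxb4, Hoxb5, Hoxb6, Hoxb7, Hoxb8, Hoxc4, Hoxc5, Hoxc8, Hoxc9 and Hoxd4. Per kb of exon, Hoxa9 was highest, at 28.3 ± 5.0 (P5) and 31.8 ± 3.12 (4 weeks) CPM per kb (SD, n = 4 for each age), a level above that of 81.3% of tested genes. Hoxa3 followed at 19.5 ± 2.19 and 20.98 ± 2.68 CPM per kb, then Hoxa7 at 11.7 ± 1.67 and 9.76 ± 0.942. Hoxa2 (7.66 ± 2.09 and 7.74 ± 1.87) and Hoxa10 (7.22 ± 1.53 and 6.94 ± 0.925) were next and lay within each other's spread. Hoxb3 came after them at 3.98 ± 0.473 and 5.20 ± 0.794 CPM per kb, and Hoxb2 at 3.24 ± 0.915 and 3.37 ± 1.09. Hoxa6, Hoxb7 and Hoxb9, the last of the 10 highest by this measure, were at 1.99, 1.14 and 0.784 CPM per kb at P5 and at 1.49, 0.663 and 0.199 at 4 weeks.

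The comparison of the ages asks how HSCs shortly after birth differ from those of the young mouse. No Hox gene passed the test on exon reads: edgeR's quasi-likelihood test called 0 of 10 tested members at a Benjamini-Hochberg adjusted p under 0.05, where it called 16.5% of all genes tested, 7.99% as higher and 8.55% as lower at P5. DESeq2 called 1, Hoxb9 (higher at P5), where it called 1159 of all 12235 genes higher and 1163 lower. Limma-voom called 0, where it called 952 of all 12235 genes higher and 1077 lower. An unadjusted p under 0.05 was reached by 3 of the 10 (Hoxa7, Hoxb3 and Hoxb9), against 29.9% of all genes. The groups did not separate for any of the 10, against 21.2% of all genes tested. The median log2 fold change of the 10 was 0.017, and that of all tested genes -0.0042. In bulk RNA, fewer cells with a transcript and less of it per cell cannot be told apart.

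Hoxa9 (chromosome 6, 52223097 to 52227370, RefSeq on GRCm38.p6 as for all genes here) had 70.3, 107, 87.9 and 100.0 CPM of exon reads in P5 replicates 1 to 4 and 98.4, 91.7, 105 and 115 CPM in 4-week replicates 1 to 4. Only P5 replicate 1 stood clearly below the rest. The log2 fold change was -0.17 (SE 0.124, 95% interval -0.41 to 0.076, edgeR adjusted p = 0.402). Hoxa7, also known from MLL-driven leukaemia, had 56.8, 79.4, 66.7 and 63.3 CPM at P5 and 57.8, 47.9, 56.0 and 60.3 CPM at 4 weeks. P5 values were mostly the higher ones, with a log2 fold change of 0.26 (SE 0.120, edgeR adjusted p = 0.163). Hoxa3, an anterior gene needed for the thymus and parathyroid, had 45.7, 59.4, 50.9 and 49.6 CPM at P5 and 57.7, 44.8, 60.6 and 57.6 CPM at 4 weeks. Its groups overlapped (log2 fold change -0.10, 95% interval -0.34 to 0.14).

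Hoxa10, a posterior relative of Hoxa9 that is also linked to myeloid leukaemia, had 21.4, 16.9, 28.4 and 24.0 CPM at P5 and 25.3, 19.3, 19.5 and 23.1 CPM at 4 weeks, with a log2 fold change of 0.055 (95% interval -0.28 to 0.39). With uniquely mapped reads, 42.1% of its total, the estimate was -0.257 and likewise not called (edgeR adjusted p = 0.452). Hoxa2, known for patterning the hindbrain, had 9.68, 17.9, 11.5 and 15.4 CPM at P5 and 16.6, 8.96, 14.5 and 15.0 CPM at 4 weeks. Its groups overlapped, and the 95% interval of the log2 fold change ran from -0.49 to 0.45. Hoxb2 had 6.00, 4.66, 4.85 and 8.32 CPM at P5 and 8.85, 5.34, 6.39 and 4.16 CPM at 4 weeks (log2 fold change -0.047, 95% interval -0.66 to 0.56).

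Hoxb3, which neighbours Hoxb4 in the HoxB cluster, had 31.5, 42.3, 37.5 and 37.8 CPM at P5 and 57.4, 39.5, 47.3 and 50.6 CPM at 4 weeks. The P5 values were lower except that P5 replicate 2 lay above 4-week replicate 2. The log2 fold change was -0.39 (SE 0.136, edgeR adjusted p = 0.0694). The edgeR adjusted p was 0.0482 without P5 replicate 2, 0.0285 without 4-week replicate 2 and 0.0438 with exon and intron reads together. In the other 15 of 18 alternatives it was not called, with edgeR adjusted p of 0.181 with a replicate block, 0.205 without 4-week replicate 1, and 0.330 and 0.342 over the libraries with Y-linked reads and with these reads as a covariate.

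Hoxb9, the HoxB member of paralog group 9 (chromosome 11, 96271330 to 96276595 in RefSeq), was counted over a longer model, with 6053 exon bases and 19606 others, that also encloses Gm53 and Mir196a-1. It had 1.64, 7.46, 3.39 and 6.49 CPM at P5 and 1.74, 2.24, 0.841 and 0 CPM at 4 weeks, from 12, 48, 21 and 46 reads against 11, 13, 5 and 0. P5 replicates 2 to 4 were above every 4-week library, and P5 replicate 1 was not. The log2 fold change was 1.99 (SE 0.691, edgeR adjusted p = 0.0669). The edgeR adjusted p was 0.0397 without P5 replicate 1, 0.0489 without 4-week replicate 2 and 0.0392 with Y-linked reads as a covariate, and DESeq2 gave adjusted p = 0.0238. In the other 12 of 16 alternatives it was not called: limma-voom gave adjusted p = 0.0734, and edgeR gave 0.0569 over the 6 libraries with Y-linked reads, 0.158 with a replicate block and 0.159 without P5 replicate 4.

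Hoxc6 (chromosome 15, 102998226 to 103011882) had 0.545, 8.86, 4.53 and 10.3 CPM at P5 and 2.84, 2.07, 4.21 and 2.49 CPM at 4 weeks. P5 replicate 1 was the lowest of the 8 libraries and the other P5 libraries the highest, with a log2 fold change of 1.06 (SE 0.596, edgeR adjusted p = 0.259). Without P5 replicate 1 the log2 fold change was 1.44 (edgeR adjusted p = 0.0227), and over the 6 libraries with Y-linked reads it was 1.72 (edgeR adjusted p = 0.0140). With Y-linked reads as a covariate the estimate was the same and the edgeR adjusted p 0.0689, and limma-voom gave 0.43 (adjusted p = 0.761). Of 17 alternatives for Hoxc6, 2 made a call. For both genes the highest libraries were P5 replicates 2 and 4, the P5 libraries with Y-linked reads. P5 replicate 2 also had the highest sum of granulocyte and monocyte markers (391.7 CPM), and P5 replicate 4 the lowest of the P5 libraries (183.6 CPM). The part of such cells in these values was not tested.

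How reads were divided between overlapping gene models bears on several members. The models of 8 Hox genes lie wholly inside a longer row: Hoxa4, Hoxa5 and Hoxa6 inside Hoxa3, Hoxb4 inside Hoxb3, Hoxb5 and Hoxb6 inside the noncoding gene Hoxb5os, Hoxd4 inside Hoxd3, and Hoxd8 inside the row LOC102634284. In the 7 of them with exon reads, the uniquely mapped exon reads equalled the reads across exon junctions in every library. The counts were 52 of 52 for Hoxa6, 17 of 17 for Hoxb5 and 11 of 11 for Hoxb4. Hoxb6 had only 2 of each, and Hoxa4 had 0 of each, so its equality says nothing. For Hoxa9, which no other row overlaps, 93 of 5071 exon reads crossed a junction. Over all rows with at least 10 uniquely mapped exon reads, the 2 counts were equal in 40.5% of 148 rows inside another row and in 0.0948% of 13720 other rows. The levels of these 7 genes are therefore not comparable with those of the others, and how much RNA of Hoxa5, Hoxb4 or Hoxb5 these HSCs held cannot be told from the exon reads listed for them.

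Reads that may belong to the enclosed genes stood under the enclosing ones. Hoxa3 had 22515 intron reads, of which 11678 were uniquely mapped, and Hoxb3 had 12333, of which 9304 were. These 2 genes held 93.8% of all Hox intron reads. Exon and intron reads together were summed over Hoxa3 to Hoxa6 and the antisense gene Hoxaas3. The sums were scaled to 1000000 gene reads of all genes with an exon model. They came to 149.6 ± 14.2 (P5) and 175 ± 17.9 (4 weeks, SD, n = 4 per age), with libraries between 136 and 165 and between 149 and 187. Summed over Hoxb3 to Hoxb6 with Hoxb3os and Hoxb5os, they came to 92.8 ± 9.22 at P5 and 118 ± 12.5 at 4 weeks (SD, n = 4 per age), from 80.0 to 102 and from 101 to 129. The ages overlapped in both sums, in the second only through P5 replicate 2 and 4-week replicate 2. These sums, chosen after the overlaps were seen, were not tested.

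Hoxa9 intron reads were fewer at P5. They numbered 19, 52, 34 and 38 in P5 replicates 1 to 4 and 92, 50, 97 and 117 in 4-week replicates 1 to 4, or 1.79, 3.99, 2.54 and 2.61 CPM against 6.62, 4.04, 8.04 and 7.38 CPM. The groups did not overlap, though P5 replicate 2 and 4-week replicate 2 nearly met. The mean was 2.73 ± 0.917 CPM at P5 and 6.52 ± 1.75 CPM at 4 weeks (SD, n = 4 per age), 2.37-fold lower at P5. In all, 143 intron reads stood beside 2461 exon reads at P5, and 356 beside 2610 at 4 weeks. Of 8 Hox genes tested on intron reads, edgeR called this gene alone, lower at P5 (log2 fold change -1.25, SE 0.319, adjusted p = 0.0190), where it called 17.9% of all genes tested, 9.01% as higher and 8.86% as lower.

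The call was close to the threshold in several settings. With edgeR the adjusted p was 0.0504 without P5 replicate 3, 0.0558 without 4-week replicate 3 and 0.0549 without 4-week replicate 4. It was 0.132 over the 6 libraries with Y-linked reads and 0.135 with such reads as a covariate, with log2 fold changes of -0.97 and -0.98. Without P5 replicate 1, the library with the smallest intron share, the log2 fold change was -1.09 (edgeR adjusted p = 0.0429). All 499 intron reads were uniquely mapped, and they fall on the 1046 bases of the gene model outside its exons.

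**Figure D2:**
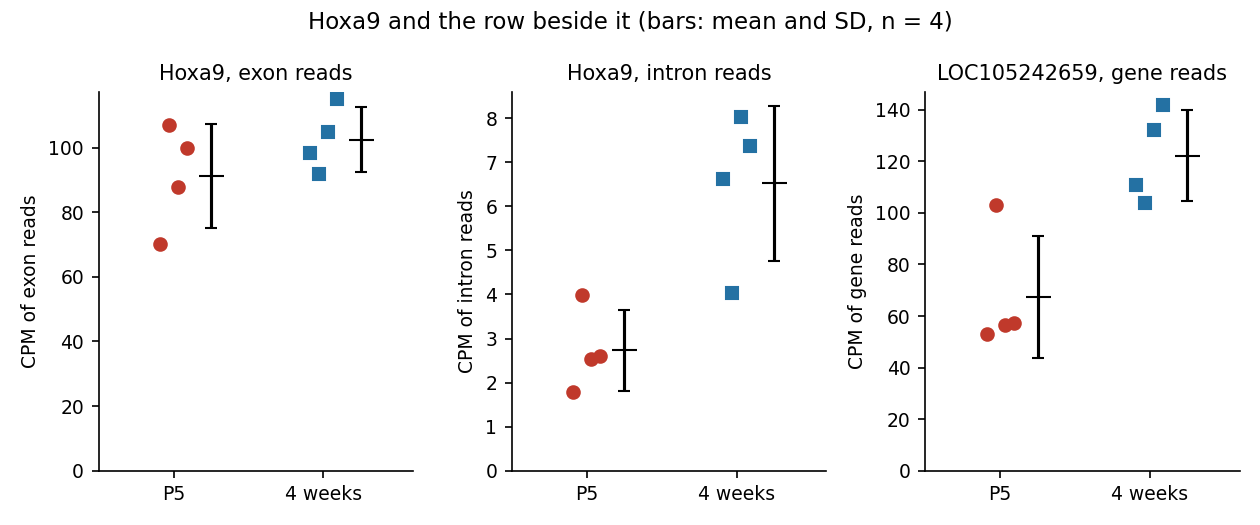
CPM of Hoxa9 exon reads, Hoxa9 intron reads and gene reads of the row LOC105242659 (vertical axes, each from 0) in 4 P5 (circles) and 4 4-week (squares) libraries, with the mean and SD beside them. Exon values of the ages overlap, and in the other panels the P5 libraries lie below the 4-week libraries, with P5 replicate 2 just below the lowest of them. The panels are scaled to different sets of reads, so their heights do not compare.

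Exon and intron reads of Hoxa9 thus differed between the ages by unequal amounts, and this was tested in a fit of both read classes with each library as its own block. The log2 change of exon reads exceeded that of intron reads by 1.08 (SE 0.207, edgeR adjusted p = 0.00493). Of 7 Hox genes that could be so tested, Hoxa9 was called, where 6.38% of all genes were called and 3.32% in this direction. The difference was between 0.958 and 1.22 in all 9 alternatives run, which left out each library in turn or used other size factors, with edgeR adjusted p at most 0.0215. Of the 6 others, Hoxa10 came nearest, with a difference of 0.70 (SE 0.286, edgeR adjusted p = 0.149).

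Among the other members tested on intron reads, Hoxa10 had 3.11, 2.30, 2.54 and 2.89 CPM at P5 and 6.54, 3.15, 3.40 and 4.48 CPM at 4 weeks. Its groups did not overlap, and its log2 fold change was -0.70 (SE 0.309, edgeR adjusted p = 0.140). Hoxb9 had 4.34, 5.22, 5.53 and 5.78 CPM of intron reads at P5 and 2.16, 2.75, 1.66 and 0 CPM at 4 weeks, again without overlap, with a log2 fold change of 1.68 (SE 0.656, edgeR adjusted p = 0.0968). Its intron reads numbered 46, 68, 74 and 84 against 30, 34, 20 and 0, and 35.4% of them were uniquely mapped, all over the long model that encloses Gm53. Without 4-week replicate 4, which had no Hoxb9 read of either class, the log2 fold change was 1.25 (edgeR adjusted p = 0.0272), and DESeq2 gave adjusted p = 0.0446 over all libraries. In the other 13 of 15 alternatives Hoxb9 intron reads were not called, with edgeR adjusted p of 0.124 with a replicate block and 0.223 and 0.187 in the settings on Y-linked reads. Groups without overlap were thus seen in 3 of the 8 genes, against 22.9% of all genes tested on intron reads. Hoxb3 had a log2 fold change of -0.30 (edgeR adjusted p = 0.0647, and 0.0164 without 4-week replicate 2), close to its exon value. Hoxa3, Hoxa7, Hoxa2 and Hoxc4 had -0.18, -0.037, 0.74 and 1.09, with edgeR adjusted p between 0.222 and 0.933. The median over the 8 was -0.11 and over all tested genes -0.012.

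**Figure D3:**
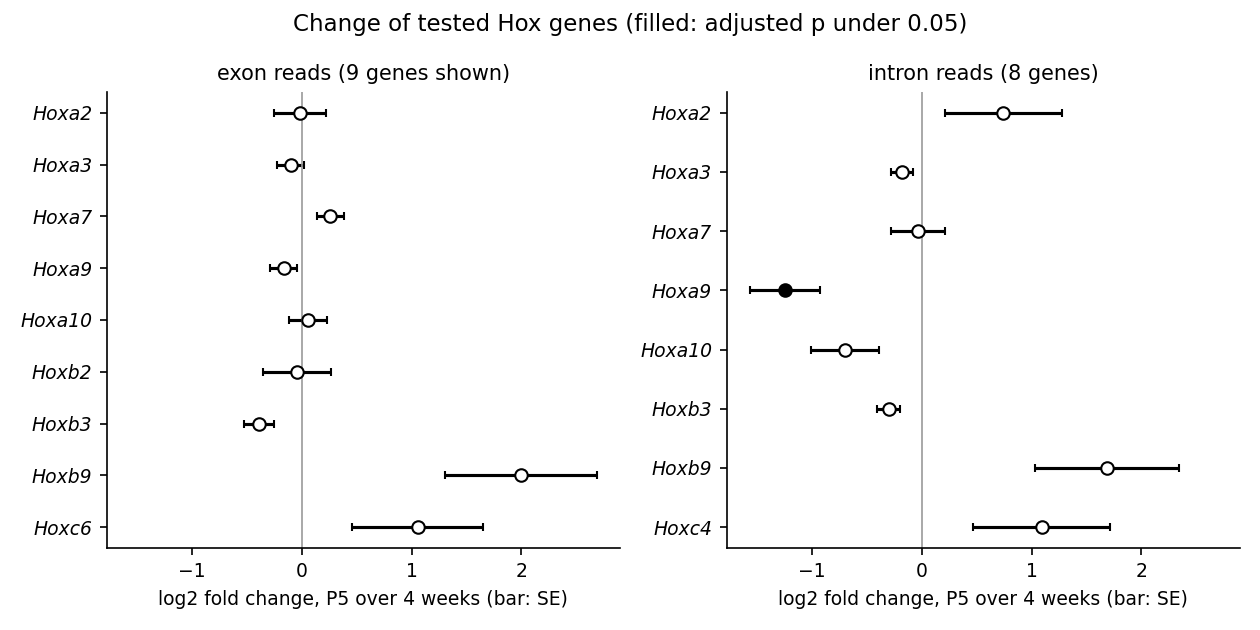
Log2 fold change of P5 over 4 weeks (horizontal axis) for 9 of the Hox genes tested on exon reads and the 8 tested on intron reads, with bars for the SE and a filled point for an adjusted p under 0.05. Hoxa9 intron reads, at -1.25, are the filled point, and Hoxb9 stands highest in both panels with the widest bars.

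Upstream of Hoxa9 lies the row LOC105242659, which has no exon model and no name in the RefSeq table used. It begins 148 bases beyond the Hoxa9 model, spans 4792 bases and shares 1115 bases with the Hoxa10 model. It contains the miRNA gene Mir196b. Its gene reads came to 53.1, 103, 56.6 and 57.2 CPM at P5 and to 111, 104, 132 and 142 CPM at 4 weeks. These CPM are scaled over rows without an exon model and do not compare with the CPM of Hoxa9. P5 replicate 2 stood just below the lowest 4-week library and apart from the other P5 libraries. In a fit over the 2818 tested rows without an exon model, added after the data were seen, the row was 1.81-fold lower at P5 (log2 fold change -0.86, SE 0.229, edgeR adjusted p = 0.0361), where 9.69% of rows were called, 4.86% as higher and 4.83% as lower. With uniquely mapped reads, 74, 192, 87 and 96 against 226, 172, 249 and 341, the log2 fold change was -1.12 (edgeR adjusted p = 0.0195).

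Most smaller sets of libraries did not keep that call. The edgeR adjusted p was 0.0773, 0.102 and 0.0947 without P5 replicate 1, 3 or 4, and 0.0641, 0.0816 and 0.101 without 4-week replicate 1, 3 or 4. It was 0.250 over the 6 libraries with Y-linked reads and 0.231 with these reads as a covariate, with log2 fold changes of -0.617 and -0.612. Without P5 replicate 2 it was 0.00474 (log2 fold change -1.14), and without 4-week replicate 2 it was 0.0477.

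The stretch before the Hoxa9 start site is shown because it lies between Hoxa9 and most of that row and holds the near end of the row. It is the 250 bases at chr6:52227371-52227620 on the minus strand, from RefSeq on GRCm38.p6, 5′ to 3′ toward Hoxa9, with the match to GGGCGG in capitals.
Hoxa9 upstream: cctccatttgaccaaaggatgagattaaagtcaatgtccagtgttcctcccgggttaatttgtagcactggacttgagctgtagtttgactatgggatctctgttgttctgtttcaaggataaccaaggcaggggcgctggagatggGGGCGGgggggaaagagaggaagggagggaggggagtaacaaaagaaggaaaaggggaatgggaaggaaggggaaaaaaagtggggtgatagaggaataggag
Searched on both strands, GGGCGG occurred 1 time and TATAAA and CCAAT 0 times. Of 32851 RefSeq promoters cut to the same length, 32.7% held GGGCGG, 12.4% TATAAA and 33.8% CCAAT. These are letter matches and say nothing about which factors bind.

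Some sparse HoxC and HoxD members, picked after their values were seen, had most or all of their reads at P5. Others did not: Hoxc4 had 12 exon reads at P5 and 10 at 4 weeks, and the 1 exon read of Hoxc12 was from 4 weeks. How many equally sparse genes elsewhere have reads at 1 age only was not counted. Hoxc5 had 1, 11, 4 and 9 exon reads at P5 and 1, 0, 0 and 1 at 4 weeks. Hoxc9, the HoxC member of paralog group 9, had 5, 3, 0 and 13 exon reads and 2, 7, 2 and 14 intron reads at P5, and no read of either class at 4 weeks. Each P5 library thus held Hoxc9 reads, and summed over the group its exon level was at least 6.55-fold and its intron level at least 8.76-fold higher at P5, against a floor of 3 reads over the 4-week group. Hoxd4 had 1, 7, 2 and 1 exon reads at P5 and none at 4 weeks, at least 3.43-fold higher. Hoxd3, whose model encloses Hoxd4, had no exon read and 25, 10, 10 and 5 intron reads at P5 against none at 4 weeks, at least 17.5-fold higher, and 33 of the 50 were uniquely mapped to it. These bounds cover counting error only and rest on few reads, with no molecular identifiers to separate copies made by amplification.

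These genes were below the read minimum of the test. When no minimum was set, edgeR called 1 of 28 Hox genes on exon reads, Hoxc9 (higher at P5). It called 979 of all 17085 genes higher and 1041 lower. On intron reads of 23 Hox genes, Hoxc9 and Hoxd3 were called higher and Hoxa9 lower. There, 1105 of all 18231 genes were higher and 1175 lower. Since all 4-week libraries are at 0 for Hoxc9 and Hoxd3, their calls add nothing to the reads given above. In the authors' deposited table of the ages, 2 of the 39 Hox genes had a corrected p under 0.05, Hoxc5 (9.75-fold higher at P5, corrected p = 0.00830) and Hoxc9 (corrected p = 0.00768). The share of all genes under that threshold in it was not counted, so the 2 cannot be set against a background. The authors' deposited table gave a corrected p of 0.0734 for Hoxd4 and 0.0525 for Hoxb9. Hoxc8 had 6 exon reads, all from P5 replicate 4. Of 12 mesenchymal markers, Prrx1, Lum and Twist2 had no read in any library. The others went both ways: Pdgfra averaged 3.52 CPM at P5 and 1.42 at 4 weeks, where 2 libraries had none, and Col1a2 14.5 and 7.87 CPM, both with overlap, while Pdgfrb averaged 3.32 and 10.9 CPM. Cxcl12 reached 0.136 CPM at P5 and 50.4 CPM in 4-week replicate 4, with at most 0.862 CPM in the other 4-week libraries. The part of such cells in the HoxC and HoxD reads was not tested.

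**Figure D4:**
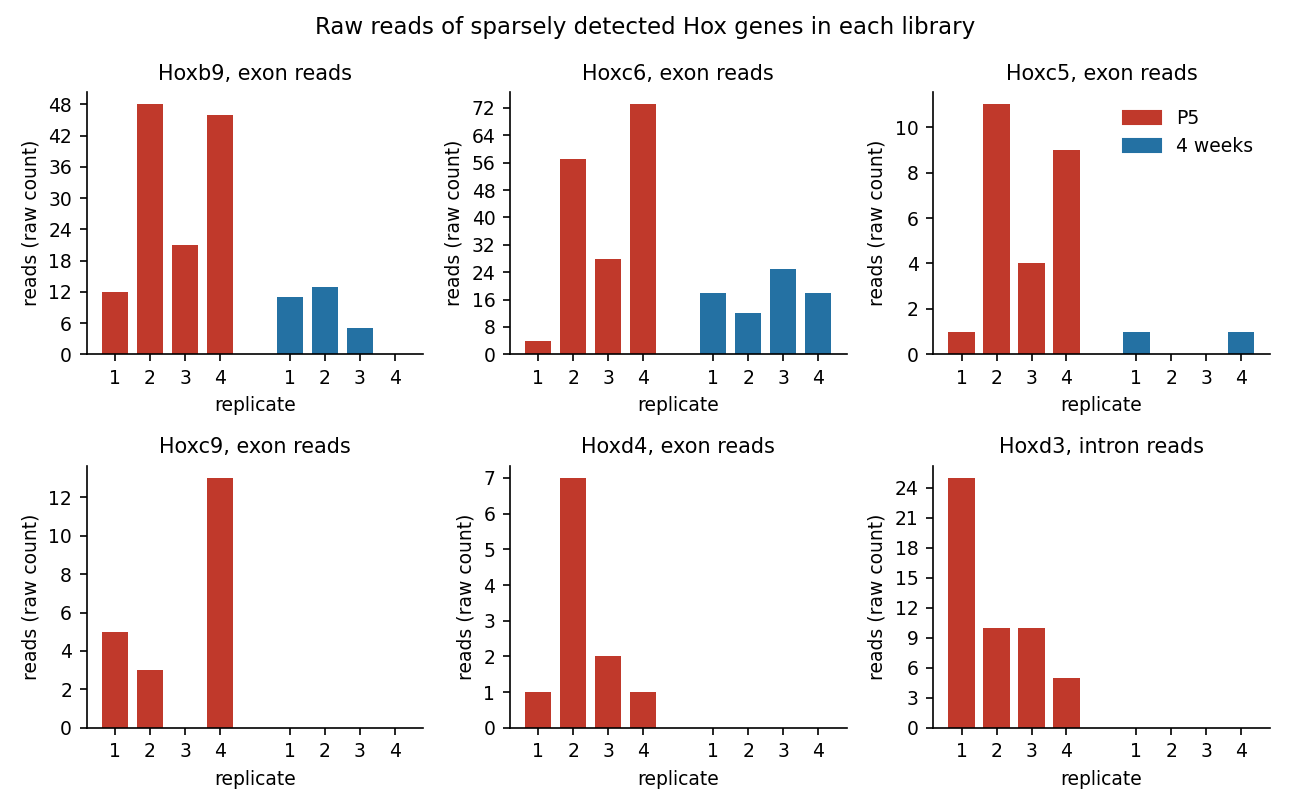
Raw reads (vertical axes, each from 0) of Hoxb9, Hoxc6, Hoxc5, Hoxc9 and Hoxd4 over exons and of Hoxd3 over introns in the 4 P5 and 4 4-week libraries, for genes chosen after their values were seen. Hoxc9, Hoxd4 and Hoxd3 have reads at P5 and none at 4 weeks, and P5 replicates 2 and 4 carry most reads of Hoxb9, Hoxc6 and Hoxc5.

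In HoxB, the middle genes gave few reads at both ages. Hoxb7 had 4, 13, 6 and 16 exon reads at P5 and 4, 0, 8 and 10 at 4 weeks, or 1.45 ± 0.822 and 0.841 ± 0.659 CPM (SD, n = 4 per age). Hoxb8, known for blocking myeloid differentiation when overexpressed, had 35 exon reads at P5 and 20 at 4 weeks. Hoxa6 had 1.64, 1.55, 0.808 and 1.55 CPM at P5 and 1.11, 0.345, 2.02 and 0.693 CPM at 4 weeks. Of its 64 exon reads, 52 crossed a junction. For Hoxb4, Hoxb5 and Hoxb6 there were 8, 18 and 4 exon reads at P5 and 12, 20 and 3 at 4 weeks. Hoxa11, posterior to Hoxa10, had 3 and 4 exon reads, Hoxc4 had 12 and 10, and Hoxa5 had 5 and 1. The groups overlapped in all of these.

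The remaining members, most of them posterior, gave a single exon read or none. Hoxa13, Hoxb1, Hoxd10, Hoxa4 and Hoxc12 had 1 exon read each, the first 3 at P5 and the others at 4 weeks. No exon read was listed for Hoxb13, Hoxc10, Hoxc11, Hoxc13, Hoxd1, Hoxd3, Hoxd8, Hoxd9, Hoxd11, Hoxd12 and Hoxd13, which over all libraries allows a level of up to 0.0572 CPM (3 of 52454674 exon reads, counting error only). Of these, Hoxc11 and Hoxc13 had 1 intron read each, and Hoxd3 had the 50 described above.

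The clusters also carry noncoding genes. In all, 31 such or other rows lie between the outermost Hox genes of a cluster or up to 20000 bases beyond them. Of these, 12 had no read and 7 could be tested. LOC105242659 passed the test, and the other 6 did not, namely Hoxaas2, Hotairm1, Hoxaas3, Hoxb3os, Hoxb5os and Gm30528. Hoxaas2, an antisense gene at the edge of Hoxa3, had 58.2 ± 7.11 (P5) and 58.8 ± 10.5 (4 weeks) CPM of gene reads, and Hotairm1, a noncoding RNA of the anterior HoxA end known from myeloid differentiation, had 12.6 ± 3.47 and 10.7 ± 2.15 (SD, n = 4 per age). Gm30528, which overlaps Hoxc4, had 1.51, 8.67, 9.43 and 8.95 CPM at P5 and 1.76, 5.75, 3.05 and 0 CPM at 4 weeks (log2 fold change 1.47, edgeR adjusted p = 0.280). The CPM of these rows are scaled over rows without an exon model and do not compare with those of Hox genes. Hottip and Hotair, noncoding RNAs of the posterior HoxA and HoxC ends, had no read.

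The miRNA genes of the clusters were not read as such by these libraries. Mir196b had 4 reads, none uniquely mapped, and Mir196a-1, Mir196a-2, Mir10a, Mir10b and Mir615 had none. Their products are shown because they fall into 2 families with a shared seed, encoded within Hox clusters, and Mir196b lies inside the row that was lower at P5. Capitals mark the seed, bases 2 to 8. The sequences are from RefSeq on GRCm38.p6.
miR-196b-5p: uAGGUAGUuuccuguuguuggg
miR-196a-5p: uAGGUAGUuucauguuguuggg
miR-10a-5p: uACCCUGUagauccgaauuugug
miR-10b-5p: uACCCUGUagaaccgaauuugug
Mature miRNAs are too short for cDNA libraries of this kind, so their levels were not measured.

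The TALE class includes, among others, the Meis and Pbx cofactors with which Hox proteins bind DNA. Of 10 tested genes of the class, 2 were higher at P5, 2 were lower and 6 were not called. Among all genes tested, 7.99% were higher and 8.55% lower. The median log2 fold change of the 10 was -0.12. Tgif1, a TALE repressor, had 35.6, 46.5, 43.8 and 43.1 CPM at P5 and 68.6, 52.0, 67.1 and 67.7 CPM at 4 weeks. Every P5 library was below every 4-week library (log2 fold change -0.60, edgeR adjusted p = 0.00469). Its relative Tgif2 was higher at P5 (log2 fold change 0.53, edgeR adjusted p = 0.00864), as was Pbx2 (0.35, edgeR adjusted p = 0.0175). With Y-linked reads as a covariate the edgeR adjusted p was 0.0514 for Tgif1, 0.0733 for Tgif2 and 0.0541 for Pbx2, and for Pbx2 it was 0.0563 without 4-week replicate 4. Meis1, the partner of Hoxa9, had 416, 469, 428 and 444 CPM at P5 and 531, 449, 478 and 518 CPM at 4 weeks (log2 fold change -0.17, edgeR adjusted p = 0.157).

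MLL and its associates keep Hox clusters active. Of 18 tested members of that list, 2 were higher at P5 and 0 lower, against 7.99% and 8.55% of all genes tested, with a median log2 fold change of -0.042. Mllt3, a reader of acylated histones that supports HSC renewal, had 458, 556, 599 and 513 CPM at P5 and 362, 372, 431 and 424 CPM at 4 weeks (log2 fold change 0.42, SE 0.0936, edgeR adjusted p = 0.00729). Every P5 library was above every 4-week library, and the call held in all 18 alternatives. Mllt10, a cofactor of the Dot1l methyltransferase, had a log2 fold change of 0.25 (edgeR adjusted p = 0.0285) and was called in 11 of 18 alternatives, but not without P5 replicate 3 or 4-week replicate 1 or 3 (edgeR adjusted p = 0.0885, 0.0676 and 0.0673). Kmt2a, which encodes MLL itself, had a log2 fold change of -0.28 (edgeR adjusted p = 0.0509) and was called lower in 6 of 18 alternatives, among them those without P5 replicate 2 or 4-week replicate 2 (edgeR adjusted p = 0.0352 and 0.0303). Cdx1, Cdx2 and Cdx4, caudal-type activators of Hox clusters in the embryo, had no read.

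Of 12 genes reported elsewhere as targets of Hoxa9 and Meis1, 3 were higher and 4 lower at P5, against 7.99% and 8.55% of all genes tested, with a median log2 fold change of -0.089. Lmo2, a bridging factor of haematopoietic transcription complexes, was lower (log2 fold change -0.53, edgeR adjusted p = 0.000475), as were the cell cycle kinase gene Cdk6 (-0.51, edgeR adjusted p = 0.00237), the survival gene Bcl2 (-0.62, edgeR adjusted p = 0.00269) and Myc (-0.64, edgeR adjusted p = 0.00804). Camk2d, a calcium-dependent kinase (0.41, edgeR adjusted p = 0.00165), Igf1, a growth factor (0.82, edgeR adjusted p = 0.00489), and Flt3, a cytokine receptor gene of multipotent progenitors (0.64, edgeR adjusted p = 0.0408), were higher at P5. Igf1 and Flt3 overlapped between the ages. With exon plus intron reads Igf1 was not called (edgeR adjusted p = 0.0977), nor was Myc over the 6 libraries with Y-linked reads (edgeR adjusted p = 0.0605). The Flt3 call was lost without P5 replicate 1, 2 or 4 (edgeR adjusted p = 0.0847, 0.0956 and 0.0774) or 4-week replicate 2, 3 or 4 (0.0745, 0.0944 and 0.0536).

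Some homeobox genes outside the clusters did pass the test, though whether their share differs from that of Hox genes was not tested. Of 22 tested, 5 were higher and 2 lower at P5, against 7.99% and 8.55% of all genes tested, with a median log2 fold change of -0.0082. Pou2f2, a POU factor of B cells, was 2.63-fold higher (edgeR adjusted p = 5.16e-05) and Satb1, a chromatin organiser linked to lymphoid potential of HSCs, 2.11-fold higher (edgeR adjusted p = 0.000156). Hhex, a homeobox gene of early haematopoiesis, had 108, 107, 97.8 and 101 CPM at P5 and 69.0, 61.0, 69.8 and 75.2 CPM at 4 weeks (edgeR adjusted p = 0.000581). Zeb2 and Pou2f1 were 1.38-fold and 1.31-fold higher (edgeR adjusted p = 0.00196 and 0.00282), and with exon plus intron reads neither was called (edgeR adjusted p = 0.117 and 0.0938). Six5 was 1.75-fold lower and Cux1 1.30-fold lower at P5 (edgeR adjusted p = 0.00396 and 0.00597), and neither was called over the 6 libraries with Y-linked reads.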

How the data were processed

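Total exon and intron reads were analysed in 8 libraries. The deposited values are raw counts of total and unique reads over exons, introns, junctions and whole genes for 48835 rows, per the file headers. Per the submitters' processing notes reads were placed on mm10; no source used here gives the aligner, the counting program or the annotation. The deposited RPKM values were not tested. P-values, corrected p-values and signed fold scores of the authors' own test of the ages, per the file headers, are quoted where named. The Nextera XT kit does not mark strand, and reads carry no molecular identifiers. Numbered copies of 975 genes were summed, which left 22050 genes with an exon model, and 24 altered names were restored by row order.

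Members and lists were chosen with earlier results of these data known. Values are given in all libraries for Hox genes called in either fit and for the 10 highest per kb, with the other Hox genes given by ranges, counts or, where sparse, raw reads. For lists called members are named. Some items that enter the counts are not reported here. The sparse Hox genes, Hoxc6, LOC105242659, Meis1 and Kmt2a were named after their values were seen. Genes were tested with edgeR 4.0.16 (filterByExpr, TMM, quasi-likelihood, Benjamini-Hochberg, threshold 0.05): 12235 genes by exon reads, 13180 by intron reads and 11399 for the exon against intron difference, after tests on simulated data. Standard errors come from the F statistic and are approximate, and CPM use effective library sizes. Alternatives were a replicate block, each library left out, other filters and size factors, DESeq2 1.42.0, limma-voom (limma 3.58.1), uniquely mapped reads, exon plus intron reads and Y-linked reads. Positions are from RefSeq on GRCm38.p6, which listed promoters for 22 Hox genes. Python 3.11.15 drew figures with matplotlib 3.10.9.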

Additional observations from a re-analysis of the deposited data

Results flagged for a closer look

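Within groups of 4 libraries, 4 of 72 highest or lowest values examined stood apart by Dixon's criterion, and chance alone flags about 1 in 20 groups. The row LOC105242659 upstream of Hoxa9 had 102.6 CPM of gene reads in P5 replicate 2, with the other P5 libraries between 53.12 and 57.17. Gm30528, which overlaps Hoxc4, had 1.507 CPM in P5 replicate 1, with the others between 8.669 and 9.433. The sum of granulocyte and monocyte markers was 391.7 CPM in P5 replicate 2, with the others between 183.6 and 209.3. The sum of erythroid markers was 90.02 CPM in 4-week replicate 3, with the others between 14.82 and 23.95.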

How the results depend on the processing

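With a replicate block, 577 genes were higher and 723 lower on exon reads. On intron reads 839 genes were higher and 822 lower, and 0 Hox genes were called lower (Hoxa9 log2 fold change -1.26, edgeR adjusted p = 0.0580). Of rows without an exon model, 76 were higher and 87 lower (LOC105242659: -0.905, edgeR adjusted p = 0.0684). The labels do not say whether equal numbers mark pairs. Deviations of libraries with the same number in the labels correlated between -0.236 and -0.031, and none correlated best with its own number. The file headers number 4-week replicates 1 and 2 as 6 and 5, against their labels, which were followed. In the header order these correlations would be 0.126 and 0.024 for the first 2 pairs, with the others as before. The value of 0.126 is the highest that P5 replicate 1 had with any 4-week library. Whether the libraries are paired cannot be told from these values. Over the 6 libraries with Y-linked reads, 619 genes were higher and 638 lower on exon reads, 699 and 618 on intron reads, and 71 and 73 rows without an exon model. With these reads as a covariate the counts were 628 and 608, 674 and 607, and 68 and 66. Both settings called 1 Hox gene higher on exon reads and 0 lower on intron reads. On exon reads 1 of 10 Hox genes was called higher with DESeq2, as were 1159 of all 12235 genes. With no filter 1 of 28 was higher, as were 979 of all 17085 genes. With exon plus intron reads 1 of 13 was lower, as were 1279 of all 14287 genes. On intron reads 2 of 23 Hox genes were called higher with no filter, as were 1105 of all 18231 genes. With DESeq2 1 of 8 was higher, as were 1513 of all 13180 genes. Leaving out single libraries gave 0 to 2 Hox genes higher and 0 to 1 lower on exon reads. Of all 12354 to 12417 genes then tested, 702 to 985 were higher and 795 to 1069 lower. On intron reads 0 to 1 Hox genes were higher and 0 to 2 lower. Of all 13383 to 13446 genes there, 848 to 1133 were higher and 821 to 1040 lower. Of rows without an exon model, 80 to 97 were higher and 82 to 117 lower. The causes were not tested.

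Estimates near 0 changed sign. On exon reads Hoxa10 was -0.257 with uniquely mapped reads, -0.0732 with exon plus intron reads, -0.0912 over the libraries with Y-linked reads and -0.0916 with the covariate. In the last 3 settings Hoxa2 was 0.142, 0.270 and 0.270, and Hoxb2 was 0.170, 0.077 and 0.0765. Hoxa9 exon reads were 0.0157 and 0.0155 in the last 2. Without single libraries, Hoxa10 ranged from -0.0699 to 0.17, Hoxa2 from -0.178 to 0.113, Hoxb2 from -0.253 to 0.176, Hoxa7 intron reads from -0.148 to 0.0652 and the Hoxb9 exon minus intron difference from -0.117 to 0.466. None of these was called. The exon against intron fit was not run with Y-linked settings. Those settings for intron reads, and the fit of rows without an exon model with all its settings, were chosen after seeing the data. At this depth the intervals of the sparse members span more than 2-fold changes, and list counts moved by up to 3 members.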
